A study of Mus musculus with 6 samples.

Results

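Fatty acid oxidation is the stepwise shortening of fatty acids to acetyl-CoA, and 32 genes of this pathway in mitochondria and peroxisomes were followed in differentiating mouse bone marrow stromal cells. The genes were chosen by name, with earlier results of these data known. Each was read from the probe set that carries that symbol alone and has the highest mean over the arrays. Of the 32 genes, 31 had such a probe set among 19938 genes in all; Cpt1b, the muscle-type carnitine palmitoyltransferase, had none. Of the 31, 30 lay above a background level of 6.83 (log2), under which 95% of 1027 olfactory receptor genes had their mean, and Ehhadh lay below it.

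The cells came from the bone marrow of C57BL/6 mice aged 6 months that were wild type (WT, 3 arrays) or labelled 188 knockout (KO, 3 arrays), the series being about the microRNA miR-188 and the choice between the osteoblast and adipocyte fates. Both genotypes were grown in the same adipocyte-inducing mixture: dexamethasone at 1 µM, insulin at 5 µg/ml and the phosphodiesterase inhibitor 3-isobutyl-1-methylxanthine at 0.5 mM, in α-MEM to which 10% fetal calf serum had been added. The labels call the 3 samples of a genotype biological replicates without naming separate mice, so the p-values reflect only how far these samples vary, which may be technical variation. All values are log2 expression on Affymetrix arrays, and the number of arrays limits their precision. The sources used here do not give the extent of the deletion, how long the cells were cultured, or a batch.

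The sequence missing by design is that of the microRNA gene Mir188. The 5p mature product of Mir188 is shown with the seed, bases 2 to 8, in capitals (RefSeq, GRCm38.p6, chrX:7248031-7248051, minus strand).
mmu-miR-188-5p: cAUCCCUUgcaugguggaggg
On the Mir188 probe set WT measured 7.29 ± 0.08 and KO 7.19 ± 0.05 (SD, n = 3), and the difference of -0.10 did not pass the test (limma adjusted p = 0.348). Nothing in the labels says that this probe set reads the deleted part, so every direction rests on the genotype labels. Over all genes 1457 of 19938, or 7.31%, passed the test between the genotypes, 666 higher and 791 lower in KO, with a median fold of 1.19 among them. The split was 862 higher and 639 lower when the arrays were quantile normalized once more. Of 10 bone marrow stroma markers, 9 lay above background, Lepr being below it, and the list went both ways: Pdgfra (0.26) and Pdgfrb (0.14) rose, Col1a1 (-0.28), Col3a1 (-0.35) and Kitl (-0.19) fell, and 5 did not pass, with a median of -0.01. Their summed level, to which Col1a1 gives the most signal, was 13.63 to 13.66 in WT and 13.51 to 13.56 in KO. Of 7 white adipocyte markers 5 lay above background, while Adipoq and Lep, which encode the hormones adiponectin and leptin, lay below it in both genotypes. Lipe rose by 0.19 (limma adjusted p = 0.0269) and the other 6 white adipocyte markers did not pass, with a median of 0.00 for the list. Their summed level, to which Pnpla2 gives the most signal, was 11.11 to 11.16 in WT and 11.13 to 11.20 in KO. Of 10 macrophage markers 3 lay above background, and Ptprc, Csf1r, Adgre1 and Lyz2 did not. The macrophage sum, 11.45 to 11.48 in WT and 11.33 to 11.34 in KO, is mostly the signal of Cd68, which fell by 0.19 (adjusted p = 0.0153). The other 9 macrophage markers did not pass, Fcgr1 and Tyrobp above background both differed by 0.04, and the list had 7 positive and 3 negative differences with a median of 0.04. The part of these markers in the results below was not tested. In bulk RNA, fewer cells of a type and less RNA per cell cannot be told apart.

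Long-chain fatty acids cross the mitochondrial membranes as carnitine esters and are then shortened in cycles of dehydrogenation, hydration, dehydrogenation and thiolysis, with electrons passed to the respiratory chain through electron transfer flavoprotein. Peroxisomes run a related cycle on very long and branched chains and hand the shortened products to mitochondria. In adipogenic cultures many of these genes are targets of PPAR nuclear receptors and of the coactivator PGC-1α, while the mature white adipocyte mainly stores fat. These are background facts and not results of these arrays.

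Between the genotypes, the oxidation genes moved in both directions and by small amounts. Cpt2, Acadl and Acaa2, all mitochondrial, rose in KO, while the peroxisomal Hsd17b4 and the mitochondrial Etfdh fell, and 26 of the 31 genes did not pass the test (limma, adjusted p under 0.05 over all genes). These 5 calls are 16.1% of the 31 genes, beside 7.31% of all genes and 10.7% of the 13090 genes above background. By direction, 3 rose, where 3.34% of all genes were called higher, and 2 fell, where 3.97% were called lower; after quantile normalization again 4 rose, with Cpt1a added, and 1 fell, with Etfdh lost. The median difference of the 31 genes was -0.03, with a range from -0.50 to 0.28, and the median of all genes was 0.00. Of the 31 genes, 12 had a positive and 19 a negative difference, but 17 a positive and 14 a negative one after cyclic loess. In 13 of the 31, or 41.9%, the genotypes were fully separated, with KO above WT in 5 and below it in 8, where 24.9% of all genes and 34.3% of the genes above background were.

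**Figure D1:**
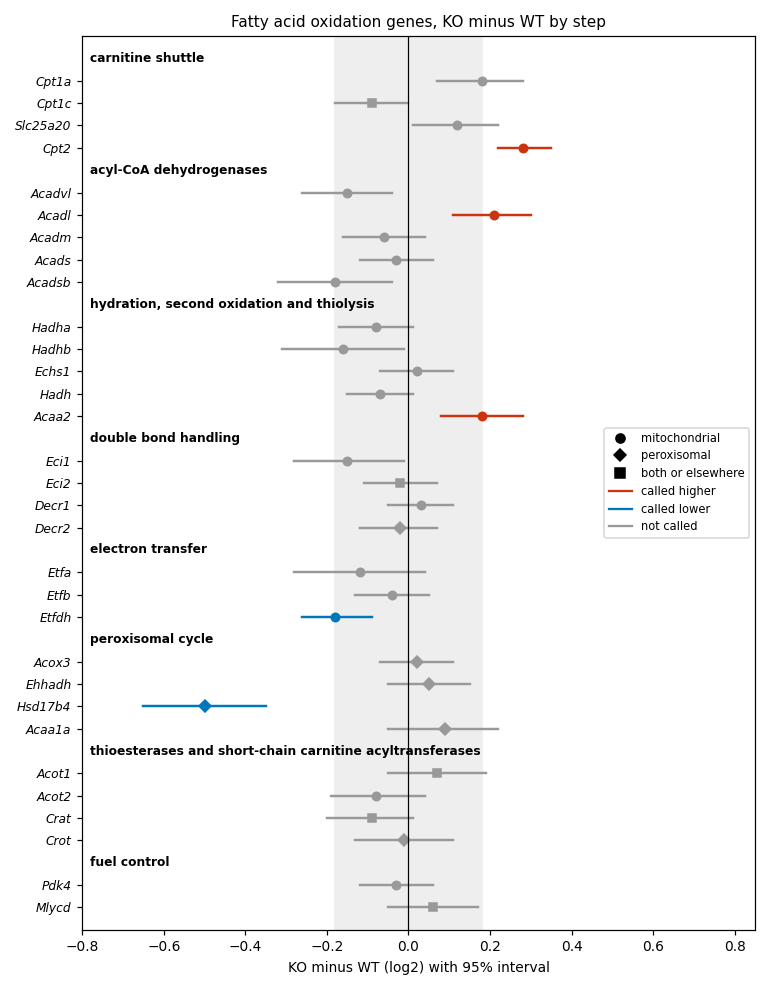
Difference KO minus WT (log2, x axis) of the 31 measured genes, grouped by step, with 95% intervals from the limma fit; the grey band spans all 19938 genes from their 5th to their 95th percentile, -0.18 to 0.18. Cpt2 at 0.28 and Hsd17b4 at -0.50 lie outside the band with their whole intervals, from 0.22 to 0.35 and from -0.65 to -0.35.

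Of the carnitine shuttle, Cpt2 rose and no gene fell. Cpt2, the acyltransferase of the inner mitochondrial membrane that returns acyl groups from carnitine to CoA, had a level of 9.36, 9.36 and 9.36 on the WT arrays and 9.64, 9.64 and 9.66 on the KO arrays. All KO values lay above all WT values. The rise was 0.28 (SE 0.03, adjusted p = 0.00467), or 1.22-fold, and Cpt2 passed the test without any of the 6 arrays in turn. The 3 WT values were exactly tied, which the summary step of the array software can produce, so their SD of 0.00 is no measure of precision. Cpt1a, the rate-controlling acyltransferase of the outer membrane, measured 10.14, 9.99 and 10.08 in WT and 10.25, 10.24 and 10.26 in KO. Its groups did not overlap either. The difference of 0.18 (SE 0.04, adjusted p = 0.0608) did not pass the test, and its 95% interval ran from 0.07 to 0.28. Cpt1a passed after quantile normalization again (0.21, adjusted p = 0.0183) and in 6 further settings, and adjusted p ran from 0.0145 to 0.191 over all alternatives. None of the 6 fits that left out 1 array gave a pass for Cpt1a. Slc25a20, the translocase that carries acylcarnitines across the inner membrane, measured 8.65, 8.50 and 8.60 in WT and 8.71, 8.69 and 8.70 in KO. The lowest WT value was that of replicate 2, as for Cpt1a, and again no KO value reached down to WT. Its difference of 0.12 (interval 0.01 to 0.22, adjusted p = 0.206) missed the threshold. Cpt1c, a brain-type relative at the endoplasmic reticulum, differed by -0.09 (adjusted p = 0.239), so 3 of the 4 measured genes of this step had a positive difference and 1 passed, with a median of 0.15.

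The 250 bases before the start sites of the shuttle's acyltransferases Cpt1a and Cpt2 are shown for the called gene of this step, Cpt2, and for the rate-controlling Cpt1a, which did not pass (RefSeq, GRCm38.p6, 5′ to 3′ on the gene's strand; Cpt1a chr19:3323051-3323300, plus strand; Cpt2 chr4:107923590-107923839, minus strand). Capitals mark the hexamer AGGTCA or its reverse complement, the core bound by many nuclear receptors.
Cpt1a: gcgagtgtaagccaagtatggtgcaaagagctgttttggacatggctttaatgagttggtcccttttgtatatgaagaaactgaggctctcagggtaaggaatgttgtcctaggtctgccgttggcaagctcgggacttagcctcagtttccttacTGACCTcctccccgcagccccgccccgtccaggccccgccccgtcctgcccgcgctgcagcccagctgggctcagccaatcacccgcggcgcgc
Cpt2: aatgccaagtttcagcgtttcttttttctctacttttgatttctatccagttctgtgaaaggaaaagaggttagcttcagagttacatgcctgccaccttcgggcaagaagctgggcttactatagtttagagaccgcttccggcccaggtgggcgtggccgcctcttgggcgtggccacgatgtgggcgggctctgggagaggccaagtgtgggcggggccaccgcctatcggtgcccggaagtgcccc
GC content was 59.6% for Cpt1a and 56.8% for Cpt2, beside a median of 52.4% over all promoters. Windows of 300 bases, from 250 before to 50 after the start site, were found for 27 of the 31 genes and searched on both strands. The hexamer AGGTCA was in 5 of them, those of Acadm, Acadvl, Cpt1a, Cpt1c and Echs1, and in 16.3% of all 32851 promoters. The PPAR type direct repeat, which is AGGTCA, any 1 base, and AGGTCA again, was in none of the 27 exactly, and in 0.0396% of all promoters. With up to 2 mismatches it was in 3 of the 27 and in 3.86% of all. These 3 sites are shown with matching bases in capitals and mismatches in lower case, in the direction of the motif.
Slc25a20: AGGTgAAAGGTCg
Etfa: AGGgCAAAGGTaA
Echs1: AGGTCACgGGTCc
The Slc25a20 site (chr9:108662142-108662154) lies 6 bases downstream of the start site, the Etfa site (chr9:55512308-55512320) begins 77 bases upstream and the Echs1 site (chr7:140116492-140116504) 83 bases upstream. The ERR type element TCAAGGTCA, which also contains the hexamer, was in none of the 27 windows, exactly or with 1 mismatch, and in 0.423% and 7.46% of all promoters. A missing match says only that these letters are not in these windows.

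Of the 5 acyl-CoA dehydrogenases, which open each cycle, Acadl rose and the other 4, with negative differences, did not pass. Acadl, the long-chain enzyme, measured 10.28, 10.17 and 10.26 in WT and 10.43, 10.45 and 10.44 in KO. All KO values lay above WT, and the gene rose by 0.21 (SE 0.04, adjusted p = 0.0270), or 1.15-fold. No fit on 5 of the 6 arrays kept this call (adjusted p = 0.0513 to 0.104, within 0.00582 to 0.132 over all alternatives). Acadvl, the very-long-chain enzyme of the inner membrane, measured 9.39, 9.44 and 9.39 in WT and 9.25, 9.19 and 9.34 in KO. Here all KO values lay below WT, with a difference of -0.15 (interval -0.26 to -0.04, adjusted p = 0.111) that did not pass. The log2 ratio of Acadl to Acadvl within each array, a quantity in which only the difference between genotypes can be read, was 0.89, 0.73 and 0.86 in WT and 1.18, 1.27 and 1.11 in KO. The ratio was 0.36 higher in KO. Its groups could not overlap, since KO lay wholly above WT for Acadl and wholly below it for Acadvl. The two-sided exact permutation test over 20 labellings (p = 0.1, the smallest this design allows) was thus fixed in advance and adds no support. This pair was chosen after its values were seen. Acadm, the medium-chain enzyme, measured 10.34, 10.31 and 10.35 in WT and 10.30, 10.20 and 10.32 in KO, with overlapping groups and a difference of -0.06 (adjusted p = 0.474). Acads, the short-chain enzyme, differed by -0.03 (adjusted p = 0.732). Acadsb, which also acts on branched short chains from isoleucine, measured 9.54, 9.39 and 9.49 in WT and 9.20, 9.38 and 9.30 in KO. Its difference of -0.18 (adjusted p = 0.139) had KO values just below WT.

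The window before Acadl is shown as that of the dehydrogenase that passed (GRCm38.p6, chr1:66863310-66863559, minus strand, 68.0% GC), and it holds none of the motifs searched.
Acadl: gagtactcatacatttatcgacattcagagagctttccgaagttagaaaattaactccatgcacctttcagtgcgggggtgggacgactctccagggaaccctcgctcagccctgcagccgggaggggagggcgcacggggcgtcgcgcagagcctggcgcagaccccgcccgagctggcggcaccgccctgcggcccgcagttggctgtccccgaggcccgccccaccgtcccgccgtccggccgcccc

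**Figure D2:**
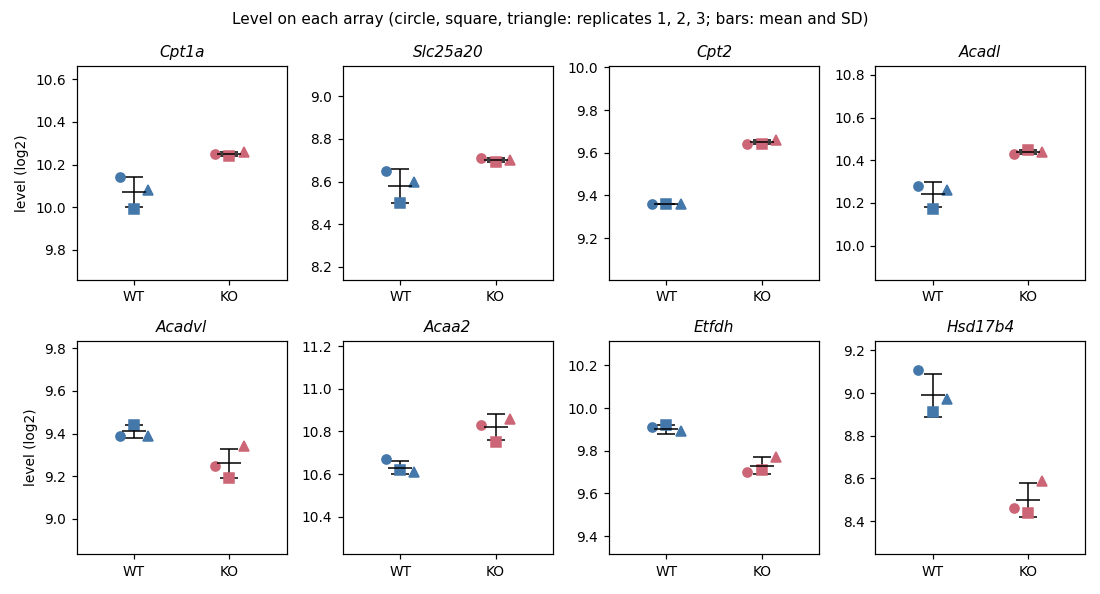
Level (log2, y axis, 1 unit high in every panel) of 8 genes on each array, with circles, squares and triangles for replicates 1, 2 and 3 and bars for the mean and SD of 3 arrays. In every panel the KO and WT points do not overlap: KO lies above WT for Cpt1a, Slc25a20, Cpt2, Acadl and Acaa2 and below it for Acadvl, Etfdh and Hsd17b4, the widest gap being that of Hsd17b4. The 8 genes were picked from the 13 of 31 that were fully separated. Cpt1c, Acadsb, Hadha, Hadh and Eci1, all with KO below WT, are not shown.

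Of the enzymes that complete the mitochondrial cycle, only the thiolase Acaa2 passed the test. Acaa2, which releases acetyl-CoA from medium chains, measured 10.67, 10.62 and 10.61 in WT and 10.83, 10.75 and 10.86 in KO. The KO values were all above WT, with a rise of 0.18 (SE 0.04, adjusted p = 0.0497) close to the threshold. It held after quantile normalization again (0.23, adjusted p = 0.0189), and of the 6 fits on 5 arrays that lacking KO replicate 2 kept it (adjusted p = 0.0448) while the others did not (0.0985 to 0.195, within 0.00810 to 0.195 over all alternatives). Hadha and Hadhb encode the α and β subunits of the trifunctional protein, which carries out the same steps on long chains. Hadha measured 11.07 on all 3 WT arrays and 10.93, 11.03 and 11.02 in KO, a difference of -0.08 (adjusted p = 0.293). Its WT values were exactly tied, as for Cpt2. Hadhb measured 9.55, 9.31 and 9.50 in WT and 9.30, 9.27 and 9.31 in KO. The groups touched at WT replicate 2, and the difference was -0.16 (adjusted p = 0.215). Leaving that array out gave -0.23 and a pass (adjusted p = 0.0383, within 0.0349 to 0.491 over all alternatives). Echs1, the short-chain hydratase, differed by 0.02 (adjusted p = 0.812), and Hadh, the medium- and short-chain hydroxyacyl-CoA dehydrogenase, by -0.07 (adjusted p = 0.301).

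None of the 4 genes that prepare double bonds of unsaturated fatty acids passed. The mitochondrial isomerase Eci1 differed by -0.15 (adjusted p = 0.206), with its lowest value of 9.46 on KO replicate 2 beside 9.66 and 9.63 on the other KO arrays and 9.72 to 9.74 in WT. Eci2, an isomerase of peroxisomes and mitochondria, and the peroxisomal reductase Decr2 both differed by -0.02 (adjusted p = 0.795 and 0.806), and the mitochondrial reductase Decr1 by 0.03 (adjusted p = 0.645).

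Electron transfer from the dehydrogenases to ubiquinone had 1 gene past the test. Etfdh, the oxidoreductase that passes electrons from the flavoprotein to ubiquinone, measured 9.91, 9.92 and 9.89 in WT and 9.70, 9.71 and 9.77 in KO. All KO values lay below WT, and the gene fell by 0.18 (SE 0.03, adjusted p = 0.0308), or 1.13-fold. The call depended on the scaling: over all probe sets the difference was -0.15 after quantile normalization again (adjusted p = 0.0521) and after cyclic loess (adjusted p = 0.0531), while the same scalings of the gene table alone, tried after values were seen, kept it (adjusted p = 0.0441 and 0.0457). Of the fits on 5 arrays, the call held in the fit lacking KO replicate 3 (adjusted p = 0.0484) and not in the other 5 (0.0774 to 0.114, within 0.00845 to 0.158 over all alternatives). The flavoprotein subunits themselves did not pass: Etfa differed by -0.12 (interval -0.28 to 0.04, adjusted p = 0.386) and Etfb by -0.04 (adjusted p = 0.604). The window before Etfdh (GRCm38.p6, chr3:79628768-79629017, minus strand, 54.4% GC) holds none of the motifs searched and is shown as that of the mitochondrial gene that fell.
Etfdh: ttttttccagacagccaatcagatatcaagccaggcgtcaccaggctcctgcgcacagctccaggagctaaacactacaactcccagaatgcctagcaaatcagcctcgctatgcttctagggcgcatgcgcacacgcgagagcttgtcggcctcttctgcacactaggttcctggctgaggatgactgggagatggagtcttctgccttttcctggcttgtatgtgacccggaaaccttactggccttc

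The largest change of the 31 genes was peroxisomal. Hsd17b4, the D-bifunctional protein that hydrates and dehydrogenates very long and branched acyl-CoAs, measured 9.11, 8.91 and 8.97 in WT and 8.46, 8.44 and 8.59 in KO. The lowest WT value lay above the highest KO value. The gene fell by 0.50 (SE 0.06, adjusted p = 0.00820), or 1.41-fold. Without WT replicate 3 the fall was of about the same size, -0.51, and just missed the threshold (adjusted p = 0.0570, against 0.00166 to 0.0577 over all alternatives). No window was taken for Hsd17b4, Acaa2, Crat or Decr1. The other 3 peroxisomal genes of the cycle did not pass. Acox3, an acyl-CoA oxidase for branched chains, differed by 0.02 (interval -0.07 to 0.11, adjusted p = 0.809). Ehhadh, the L-bifunctional protein, carries out the corresponding hydration and dehydrogenation steps. It measured 6.26, 6.29 and 6.31 in WT and 6.38, 6.26 and 6.37 in KO, below background in both. The groups overlapped, with a difference of 0.05 (adjusted p = 0.551). Acaa1a, the peroxisomal thiolase, measured 8.61, 8.71 and 8.68 in WT and 8.84, 8.66 and 8.76 in KO. These groups overlapped, with a difference of 0.09 (adjusted p = 0.459).

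Thioesterases and the short- and medium-chain carnitine acyltransferases, which release or export acyl groups, did not pass. Acot1, a cytosolic acyl-CoA thioesterase, differed by 0.07 (adjusted p = 0.490) and its mitochondrial relative Acot2 by -0.08 (adjusted p = 0.454). Acot1 and Acot2 are near-identical neighbouring copies, so probes may read both and their values are uncertain. Crat, the carnitine acetyltransferase of mitochondria and peroxisomes, differed by -0.09 (adjusted p = 0.301) and Crot, the peroxisomal octanoyltransferase, by -0.01 (adjusted p = 0.936). Of the genes that set the use of fatty acids against glucose, Pdk4, the kinase that switches off pyruvate dehydrogenase and a classic target of PPARs and glucocorticoids, measured 13.34, 13.29 and 13.26 in WT and 13.24, 13.30 and 13.26 in KO. The groups overlapped throughout, and the 95% interval of the difference of -0.03 ran from -0.12 to 0.06 (adjusted p = 0.722). Mlycd, which removes malonyl-CoA, the inhibitor of CPT1, differed by 0.06 (adjusted p = 0.575).

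By organelle, 3 of the 20 mitochondrial genes rose, 1 fell and 16 did not pass, with a median difference of -0.05 and 7 positive values. Among 6 peroxisomal genes there was 1 fall and no rise, and 5 did not pass, with a median of 0.01 and a range from -0.50 to 0.09. The 5 genes in both organelles or elsewhere had no call and a median of -0.02. Calls were 20% of the mitochondrial and 16.7% of the peroxisomal genes, beside 7.31% of all genes and 10.7% of those above background. Whether these shares differ was not tested. The mitochondrial median shrank to -0.02 after quantile normalization again and after cyclic loess, which moved the median of all genes to 0.02 and 0.01.

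**Figure D3:**
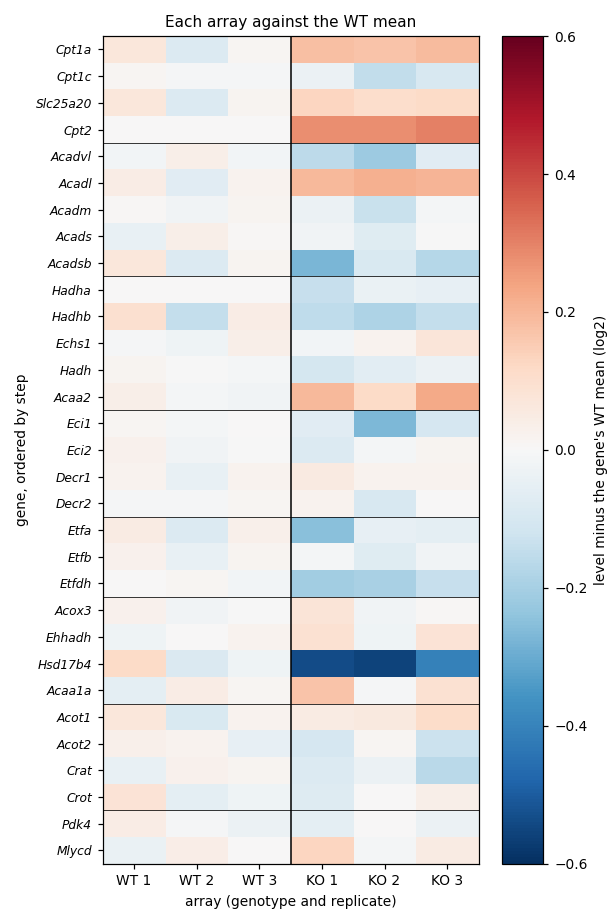
Level on each array minus the gene's own WT mean (log2, colour scale from -0.6 to 0.6), with genes in rows ordered by step and arrays in columns. The red KO blocks of Cpt1a, Slc25a20, Cpt2, Acadl and Acaa2 and the dark blue one of Hsd17b4 are of similar colour on all 3 KO arrays, while Eci1 and Etfa owe their blue mostly to KO replicate 2 and KO replicate 1.

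The arrays of a genotype differed among themselves, in a way that part of the oxidation genes shared. WT replicate 2 was the lowest WT array for 16 of the 31 genes, or 51.6%, beside 30.4% of all genes, among them Cpt1a, Slc25a20, Acadl, Acadsb, Hadhb, Etfa and Hsd17b4. WT replicate 1 was the highest WT array for 18 of the 31, beside 30.2% of all genes. KO replicate 2 was the lowest KO array for 18 of the 31, or 58.1%, beside 39.0% of all genes. KO replicate 3 was the lowest for 2, or 6.45%, beside 25.9% of all genes. It was the highest for 14, beside 29.2% of all genes.

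Beyond these 31 genes, 36 others that oxidise or handle acyl-CoAs were measured. Of them, 1 rose, 1 fell and 34 did not pass, with a median of -0.02. Calls were 5.56% of this list, beside 7.31% of all genes. Abcd2, a transporter that brings very-long-chain acyl-CoAs into peroxisomes, measured 8.90, 8.78 and 8.81 in WT and 9.24, 9.16 and 9.25 in KO. The groups lay well apart, with a rise of 0.38 (SE 0.04, adjusted p = 0.00692), opposite in direction to Hsd17b4 in the same organelle. Acot9, a mitochondrial thioesterase, fell by 0.31 (SE 0.04, adjusted p = 0.00810). Both calls were lost without WT replicate 3 (adjusted p = 0.0537 for Abcd2 and 0.0673 for Acot9, against 0.00100 to 0.0537 and 0.00126 to 0.0673 over all alternatives).

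Of 14 genes of peroxisome biogenesis with catalase, Pex11a, which promotes peroxisome division and is induced by PPARα ligands, was the only call. It measured 9.49, 9.36 and 9.45 in WT and 9.66, 9.73 and 9.77 in KO. Its groups did not overlap, and it rose by 0.29 (SE 0.05, adjusted p = 0.0178), but the call ended when WT replicate 1 (adjusted p = 0.05 when rounded, just over the threshold) or 3 (0.0876), or KO replicate 2 (0.0672) or 3 (0.0725), was left out. Over all alternatives its adjusted p ranged from 0.00348 to 0.0951. The 1 call is 7.14% of this list, beside 7.31% of all genes. All 14 differences were positive, with a median of 0.06 and values from 0.01 to 0.29, and 11 to 14 were positive over the alternatives. Citric acid cycle genes, which burn the acetyl-CoA made in mitochondria, had no call among 16. Their median was -0.07, with 15 negative differences, which became 11 after quantile normalization again (median -0.04) and after cyclic loess (median -0.03). In 7 of the 16, all of which lay above background, the 3 KO values lay below the 3 WT values. The same held for 13.5% of all genes and for 2526 of the 13090 genes above background. With array weights, with the variance trend and among genes above background only, 4 of the 16 passed. In these settings 17.1%, 11.4% and 16.7% of all genes tested passed.

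Among the regulators of the pathway, Pparg fell while Ppard and Ppargc1a rose. Pparg, the adipogenic nuclear receptor, measured 9.08, 9.21 and 9.08 in WT and 7.84, 7.72 and 8.02 in KO, a fall of 1.27 (SE 0.08, adjusted p = 0.00113). Ppard, the PPAR that induces oxidation genes in many tissues, measured 10.71, 10.72 and 10.71 in WT and 11.07, 10.98 and 11.00 in KO. Its KO values all lay above WT, and the rise was 0.30 (SE 0.04, adjusted p = 0.00707), which of the 6 fits on 5 arrays missed the threshold in that lacking WT replicate 3 (adjusted p = 0.0675, within 0.000638 to 0.0675 over all alternatives). Ppara, the PPAR of liver oxidation, lay below background and differed by -0.03 (adjusted p = 0.733). Ppargc1a, which encodes PGC-1α, rose by 0.41 (SE 0.03, adjusted p = 0.00292), and its values of 9.19, 9.17 and 9.17 in WT and 9.62, 9.57 and 9.56 in KO were far apart. Of 17 regulators, 2 rose, 1 fell and 14 did not pass, with a median of -0.02. Calls were 17.6% of this list, beside 7.31% of all genes and 10.7% of those above background. The list was chosen with earlier results of these data known, so no excess is read from this share.

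Of 10 other PPAR-responsive genes, 2 rose, 2 fell and 6 did not pass, with a median of 0.03. Calls were 40% of this short list, beside 7.31% of all genes and 10.7% of those above background. This list too was chosen with earlier results known, so its share is no evidence of an excess. Angptl4, a secreted inhibitor of lipoprotein lipase, rose by 0.51 (adjusted p = 0.00184) and Fabp3, a heart-type fatty acid binding protein, by 0.40 (adjusted p = 0.0115). Lpl, lipoprotein lipase, fell by 0.42 (adjusted p = 0.00964) and Fabp4, the adipocyte fatty acid binding protein, by 0.33 (adjusted p = 0.0186). Of these, Angptl4 passed in every alternative. The Fabp3 call ended when WT replicate 3 (adjusted p = 0.0727) or KO replicate 2 (0.0521) was left out, and the Lpl call when WT replicate 3 (0.0537) or KO replicate 3 (0.0510) was. The Fabp4 call ended when WT replicate 1 (0.0832) or 3 (0.101), or KO replicate 1 (0.0663) or 3 (0.0782), was left out. Their adjusted p ranged over all alternatives from 0.00165 to 0.0784 for Fabp3, from 0.00234 to 0.0537 for Lpl and from 0.00269 to 0.108 for Fabp4.

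**Figure D4:**
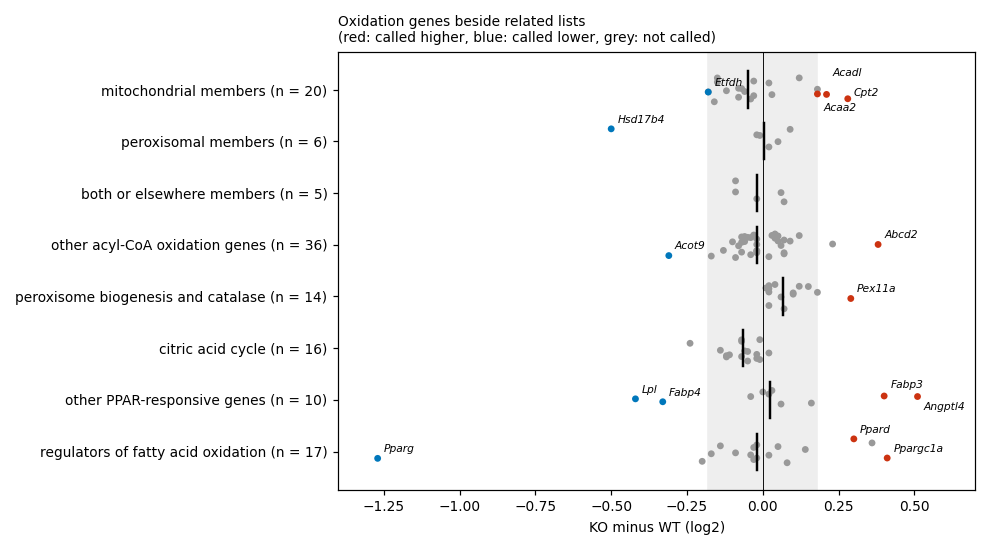
Difference KO minus WT (log2, x axis) of each measured gene in the oxidation set by organelle and in 5 related lists, with a black bar at each list's median and the grey band spanning the 5th to the 95th percentile of all genes. The called genes lie on both sides in the mitochondrial, other oxidation, PPAR-responsive and regulator rows, the peroxisome biogenesis row lies wholly right of 0 and the citric acid cycle row has 15 of 16 points left of it, a count that is 11 after another scaling.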

How the data were processed

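The deposited log2 values were made by the authors with RMA, Partek and Affymetrix Expression Console, per the submitters' processing notes, which give no versions. RMA corrects background, brings arrays to a common distribution and summarises probes by median polish, so differences are relative to other genes and values can tie. The array medians lay between 7.19 and 7.23. Of 35556 probe sets, 21789 had 1 symbol in the platform annotation, 1621 several and 12146 none; symbols were updated through GRCm38.p6 gene identifiers (21698 matched). Each gene took its 1-symbol probe set with the highest mean. KO was compared with WT by limma (lmFit and eBayes, version 3.58.1, R 4.3.3), two-sided, with Benjamini-Hochberg adjustment over all 19938 genes and a threshold of 0.05, without covariates or a filter on dim genes. The script was tested on simulated data. A list was described by counts and its median. The genes, lists, steps and organelles were chosen with earlier results of these data known. Every array value was named for each called oxidation gene and for the 3 largest differences among genes not called. The same was done for 12 genes fixed by name, except Cpt1b, which had no probe set of its symbol alone. The probe set that Cpt1b shares with Gm44502 measured 6.79, 6.83 and 6.79 in WT and the same in KO. Same-numbered WT and KO arrays did not deviate together (correlations -0.30, -0.26 and -0.02, against -0.12 to 0.33 for other numbers). The labels name no pairs, so arrays were not paired. The AGGTCA search, the mismatches allowed and the Acadl to Acadvl ratio were chosen after values were seen. Promoter and microRNA sequences are from RefSeq.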

Additional observations from a re-analysis of the deposited data

How the results depend on the processing

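A total of 15 alternatives were run, 2 of them added after seeing the data: quantile normalization and cyclic loess of the table of 1 probe set per gene, in place of all probe sets. Over all genes 1457 passed; array weights gave 3418, the variance trend with robust variances 2275, genes above background only 2192 and the replicate block 52, and leaving out 1 array gave 189 to 932. Calls split into 859 higher and 667 lower with cyclic loess of all probe sets, and 818 and 734 or 830 and 703 with the added scalings. Of the 31 oxidation genes 5 passed, 8 with array weights, 0 with the replicate block (limma) and 1 to 3 without 1 array. Array weights favour WT replicate 3 (7.41, where other arrays have 0.524 to 1.19). The labels do not say whether same-numbered arrays of the 2 genotypes belong together. A call lost under the block is therefore not read as a weaker effect. Oxidation genes higher in KO were 3. They were 4 with each quantile or cyclic loess scaling, with array weights, with the variance trend and among genes above background only. They were 0 with the block and 1 to 2 without 1 array. Those lower were 2, 4 with array weights and 0 with the block. Scaling of all probe sets gave 1 with quantile normalization and 1 with cyclic loess, and leaving out 1 array gave 0 to 2. The mitochondrial median, -0.05, was -0.02 with both scalings of all probe sets, and -0.02 (quantile) and -0.01 (loess) with the added ones. None of the 5 called oxidation genes changed direction in the 15 alternatives. The cause of these shifts was not tested.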

Other observations

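Hadhb has a further probe set with its symbol alone. It lay 0.22 to 0.23 below the probe set used on every array, with a difference of -0.16 on both. This probe set is not counted as independent support, and whether either reads a copy of the gene elsewhere was not tested.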
